A study of Homo sapiens with 9 samples.

Results

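The baseline transcriptome described here is that of the control cells of a study of THP-1, a human line grown from a monocytic leukaemia. It rests on 3 of the 9 libraries, control replicates 1, 2 and 3, which were chosen by their group label alone. The cells carried no engineered change, being labelled wildtype. They had received the phorbol ester PMA at 500 nM for 4 h, had been washed and rested for 24 h, and had then been given neither LPS nor the compound PD. Poly(A)-enriched RNA was sequenced. The deposited table gives FPKM, which are fragment counts scaled to gene length and to the depth of the library, for 34643 genes. The length that fits the values is that of all annotated exons of a gene merged, which can exceed the length of its transcript. A gene with much annotated exon sequence can thus rank lower by FPKM than by fragments. Levels of different genes are compared below on this per-length scale only, by the mean FPKM over the 3 libraries and by its rank among all genes, with rank 1 the highest. The other 6 libraries, treated with LPS or with LPS and PD, were not used. No library of cells without PMA was among the samples, so the values describe a state and not a change.

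THP-1 is used as a model of the monocyte stage of the myeloid lineage. In that lineage, precursors in the bone marrow first make the proteases of the primary, or azurophil, granules, then exchange this programme for the receptors and lipid-binding proteins of monocytes and macrophages. Transcription factors such as PU.1 (SPI1), C/EBPα and IRF8 steer the early steps, and MAF accompanies late macrophages. PMA acts on protein kinase C and is widely used to make THP-1 cells adhere and take on macrophage features. THP-1 is also known for a fusion of the genes KMT2A and MLLT3, and leukaemias with KMT2A fusions usually keep HOXA genes and MEIS1 active.

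The control libraries held 15641347 to 17615420 fragments, recovered from the FPKM values. Of the 34643 genes, 12127 (35.01%) had at least 1 FPKM in every library, and these are called expressed below. Among protein-coding genes 10286 of 17228 (59.71%) were expressed. The mean was at least 10 FPKM for 4552 genes, at least 100 for 355 and at least 1000 for 33. The median was 0.308 FPKM over all genes and 6.76 over the expressed ones, and over protein-coding genes 2.64 and 7.86 FPKM. All listed genes with a row are protein-coding, so the 59.71% expressed and the median of 2.64 FPKM are the values against which the lists below are to be read. At the other end 5940 genes (17.15%), of which 1167 were protein-coding, had 0 FPKM in all 3 libraries. A gene at 0 is not shown to be absent: the bound used is the FPKM of 3 fragments in 1 library, it depends on gene length, and it covers counting error only. The labels do not say whether the libraries came from separate cultures, so the spread given by each SD may be technical.

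Transcripts of mitochondria, ribosomes, the cytoskeleton and granules filled the top of the ranking. The 15 mitochondrially encoded genes held 13.1 ± 0.158% of the summed FPKM (SD, n = 3), and 82 of 83 ribosomal protein genes were expressed and together held 10.4 ± 0.0305%. By fragments, which are not divided by gene length, these shares were 3.74% and 8.38%. MT-CO1, a subunit of the respiratory complex that reduces oxygen, was first with 6168, 6344 and 6089 FPKM in control replicates 1, 2 and 3. MT-CO2, at a mean of 4965, and MT-CO3, at 4626, are subunits of the same complex and came next, each below the one before it in every pairing of libraries. The first nuclear gene was YBX1 on rank 4, which encodes a protein that packages messenger RNA, with 3795, 3925 and 3822 FPKM. FTL, the light chain of the iron store ferritin, followed on rank 6 with 3329, 3606 and 3380 FPKM, a range that overlapped with MT-ATP6 on rank 5.

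Among the other leaders were the translation factor EEF1A1 (mean 2195 FPKM), the actins ACTB (1908) and ACTG1 (1205), and the actin regulator CAP1 (1219). By mean fragments EEF1A1, at 214600, stood above MT-CO1, at 157200. The ribosomal protein genes among the 30 most abundant were RPS27 (1377), RPS12 (1333), RPS18 (1278), RPS2 (1241), RPL13A (1178) and RPL8 (1146). CLEC11A, a secreted growth factor for haematopoietic precursors, reached 1150, 1258 and 1137 FPKM and rank 27. The granule genes SRGN, AZU1, ELANE, CTSG and PRTN3 were also in that set. Per library, 12.8% to 13.03% of the summed FPKM belonged to the leading 10 genes, and 336 to 359 genes held 50% of it. Of the 100 most abundant genes 88 were protein-coding, 14 were mitochondrial and 35 encoded ribosomal proteins, and the 100 together held 36.1%.

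**Figure D1:**
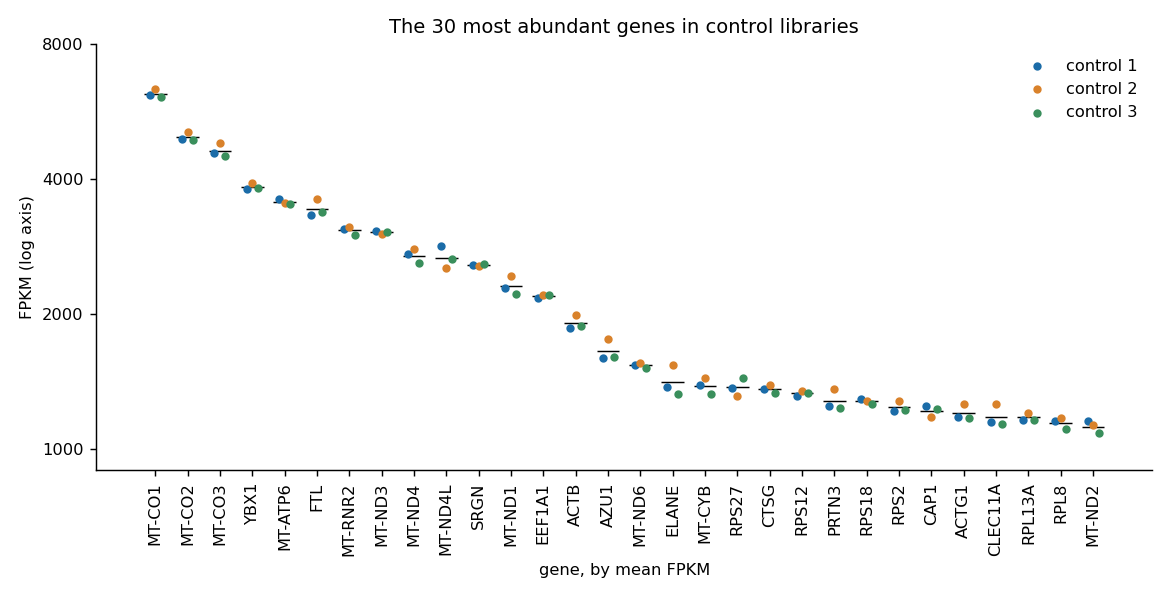
FPKM in each control library (points, log axis) of the 30 genes with the highest mean, with the mean as a line. Mitochondrially encoded genes take the first 3 places, YBX1 is the first nuclear gene, and the granule genes SRGN, AZU1, ELANE, CTSG and PRTN3 lie between 1234 and 2582 FPKM in every library.

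Transcripts annotated as noncoding also stood high, but most of those named are short copies of coding genes, whose levels are uncertain because reads of near-identical genes may be split between them. RPS28P7, a processed copy of RPS28, was listed at 1064 FPKM on rank 32, against 182 for RPS28 itself. RPL39P3 was at 706 with its parent RPL39 at 190, and RPL9P9 at 670 with RPL9 at 86.9. These values are per length, and RPS28P7 had a mean of 3670 fragments over 210 exonic bases. An FPKM above the parent's thus need not mean more fragments than the parent. For TMSB4XP8 (388) and RPS2P5 (358) the parents TMSB4X (959) and RPS2 were the higher ones. The mitochondrial ribosomal RNAs MT-RNR2 (3079) and MT-RNR1 (403), RN7SL2 (895), an RNA of the signal recognition particle, and MTND2P28 (332), a nuclear copy of mitochondrial sequence, completed the set with GPX1. GPX1 (697) encodes a glutathione peroxidase and appears here because the annotation calls it a polymorphic pseudogene. Processed pseudogenes as a class held 3.93% of the summed FPKM and 0.681% of the fragments.

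Genes of the azurophil granule formed the most abundant myeloid programme. Of 13 listed genes 11 were expressed and 9 were at 10 FPKM or more, with a list median of 169 FPKM, against 2.64 over all protein-coding genes. SRGN, the proteoglycan that packs granule proteins, had 2578, 2557 and 2582 FPKM in control replicates 1, 2 and 3 (rank 11). AZU1, which encodes the antimicrobial protein azurocidin, had 1597, 1760 and 1609 FPKM, and ELANE, neutrophil elastase, had 1376, 1540 and 1329 FPKM. Azurocidin, elastase and proteinase 3 are close relatives of one protease family, and the ranges of ELANE and the next gene in order, CTSG, overlapped. CTSG, the protease cathepsin G, had 1363, 1388 and 1331 FPKM, and PRTN3, proteinase 3, had 1250, 1359 and 1234 FPKM. RNASE2, an antiviral ribonuclease also of eosinophil granules that was placed in this list, had 569, 573 and 584 FPKM. Together the list held 3.07 ± 0.0701% of the summed FPKM (SD, n = 3) and 1.18% of the fragments.

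Members of the same granule differed widely. MPO, myeloperoxidase and the usual marker of azurophil granules, had only 2.80, 2.90 and 3.00 FPKM (rank 9298), and LYZ, lysozyme, had 170, 170 and 167 FPKM; both were singled out after their values were seen. DEFA4, a defensin, was at 0.588 ± 0.153 and BPI, which binds bacterial endotoxin, at 0.120 ± 0.0834 FPKM (SD, n = 3). Of the later, specific and gelatinase granules 2 of 8 genes with a row in the table were expressed. They were CHI3L1, a chitinase-like protein without enzyme activity, at 500, 520 and 521 FPKM, and PTX3, a soluble pattern receptor, at 1.42 FPKM. CAMP (0.906), ARG1 (0.0521), MMP9 (0.0178), LCN2 (0.0130) and MMP8 (0.0110) were below 1 FPKM, and OLFM4 was at 0 in every library, with 3 fragments equal to 0.0662 FPKM.

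AZU1, PRTN3 and ELANE lie side by side with CFD on chromosome 19, from 825097 to 863630 (GRCh38, plus strand), within 38.5 kb. CFD, which encodes complement factor D and was added after its value was seen, had 571, 619 and 536 FPKM (rank 57). These 4 genes held 1.67% of the summed FPKM. The genes on either side were lower in every library: PLPPR3 had 121, 143 and 119 FPKM and PTBP1, a splicing regulator, had 104, 106 and 103 FPKM, while MED16, a Mediator subunit, had a mean of 15.4 and R3HDM4 one of 18.9. These neighbours, too, were picked after their values were seen.

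The promoters of AZU1, PRTN3 and CFD are shown because these genes are neighbours, with that of CTSG as a granule gene on another chromosome and that of CD14 as a monocyte gene at a low level (0.466 FPKM). Each runs from 250 bases before to 50 after the RefSeq start of the gene (build GRCh38.p14), 5′ to 3′ along the gene's strand. The RefSeq start need not be the start in the deposited table. Windows are chr19:827587-827886 (plus strand) for AZU1, chr19:840749-841048 (plus strand) for PRTN3 and chr19:859414-859713 (plus strand) for CFD. Those of CTSG and CD14 are chr14:24576201-24576500 (minus strand) and chr5:140633126-140633425 (minus strand). Capitals mark TATAA (the core of a TATA box), GAGGAAG (the core that PU.1 prefers) and CAACNG (the core that MYB binds), each searched on both strands and chosen after the sequences had been seen. No match overlapped another.
AZU1: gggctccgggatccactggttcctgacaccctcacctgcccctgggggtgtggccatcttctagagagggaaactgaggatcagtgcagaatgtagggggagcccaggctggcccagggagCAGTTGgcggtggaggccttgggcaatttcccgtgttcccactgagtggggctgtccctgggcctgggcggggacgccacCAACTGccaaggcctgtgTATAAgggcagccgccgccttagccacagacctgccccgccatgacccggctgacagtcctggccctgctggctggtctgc
PRTN3: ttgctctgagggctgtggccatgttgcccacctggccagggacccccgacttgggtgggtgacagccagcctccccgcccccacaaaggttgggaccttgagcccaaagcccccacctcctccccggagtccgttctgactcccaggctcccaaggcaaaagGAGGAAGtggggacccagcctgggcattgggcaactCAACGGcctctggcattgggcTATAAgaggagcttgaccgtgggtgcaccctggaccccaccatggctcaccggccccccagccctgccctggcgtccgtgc
CFD: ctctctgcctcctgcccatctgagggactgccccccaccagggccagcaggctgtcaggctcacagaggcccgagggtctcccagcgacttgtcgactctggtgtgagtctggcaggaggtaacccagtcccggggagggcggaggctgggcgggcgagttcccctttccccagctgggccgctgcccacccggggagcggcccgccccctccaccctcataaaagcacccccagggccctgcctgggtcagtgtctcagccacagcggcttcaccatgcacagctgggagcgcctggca
CTSG: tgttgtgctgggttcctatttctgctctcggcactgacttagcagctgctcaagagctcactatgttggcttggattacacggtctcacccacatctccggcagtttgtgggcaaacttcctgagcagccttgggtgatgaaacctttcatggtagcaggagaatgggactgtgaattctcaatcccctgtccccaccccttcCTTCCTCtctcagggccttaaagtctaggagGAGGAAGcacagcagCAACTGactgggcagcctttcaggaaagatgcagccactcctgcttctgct
CD14: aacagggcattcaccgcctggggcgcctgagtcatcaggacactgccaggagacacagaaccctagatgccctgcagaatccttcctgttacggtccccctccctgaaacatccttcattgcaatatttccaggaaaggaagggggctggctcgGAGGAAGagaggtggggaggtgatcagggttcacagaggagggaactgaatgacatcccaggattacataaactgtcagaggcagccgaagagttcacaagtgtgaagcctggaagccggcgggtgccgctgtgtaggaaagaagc

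With position 0 at the start, TATAA began at -31 in both AZU1 and PRTN3. CAACNG began at -129 and -49 in AZU1, at -52 in PRTN3 and at -1 in CTSG, and GAGGAAG at -88 in PRTN3, at -47 and -16 in CTSG and at -96 in CD14. The CFD window held none of these letters. Among 9826 protein-coding genes with a single promoter in the RefSeq table, of 17228 in the deposited one, TATAA occurred in 14.3%, GAGGAAG in 14.3% and CAACNG in 33.1% of windows of the same 300 bases. Of 23 expressed genes of the azurophil, precursor and monocyte lists with such a promoter, 34.8% held TATAA, 34.8% GAGGAAG and 43.5% CAACNG. Matches of this kind are a description of the letters and show no binding.

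Promoter composition also differed between groups of genes, but not simply by level. The ratio of observed to expected CpG had a median of 0.868 in 6076 expressed genes and 0.871 in the 100 most abundant. It was 0.347 in 654 genes at 0 in every library, and lower still, 0.276, in the 23 expressed myeloid markers. TATAA occurred in 9.81% of the promoters of expressed genes, in 29.1% of those at 0, and in 38.0% of those of the 100 most abundant protein-coding genes with a single promoter. The most abundant and the silent genes thus both held TATAA more often than the expressed genes as a whole, a description over genes with no test.

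Most precursor markers were expressed, KIT (2.21 FPKM) among them, but the stem cell marker CD34 was not. Of 15 listed genes 12 were expressed, with a median of 14.8 FPKM. After CLEC11A came the transcription factor MYB (75.9, 74.1 and 77.1 FPKM), which keeps precursors dividing, and MS4A3, a membrane protein of granulocyte and monocyte precursors, with 69.4, 69.8 and 69.5 FPKM. CDK6, a cyclin-dependent kinase, was at 37.3 ± 1.83, FLT3, a receptor of early precursors, at 35.5 ± 1.15 and CD99, an adhesion molecule, at 32.2 ± 1.01 FPKM (SD, n = 3). CD34, the marker of blood stem cells, was at 0 in every library, where 3 fragments equal 0.0208 FPKM, and SPINK2 (0.101) and PROM1 (0.0104) were below 1 FPKM.

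Monocyte markers were mixed. Of 22 listed genes 15 were expressed and the median was 12.2 FPKM. The signalling adaptors of activating receptors FCER1G (193, 193 and 185 FPKM) and TYROBP (163, 170 and 156 FPKM) led together with CST3, a protease inhibitor of lysosomes (161, 175 and 159 FPKM), whose range overlapped with that of TYROBP. AIF1, an actin-binding protein of monocytes and macrophages, was at 89.2, S100A9, a calcium-binding protein, at 61.1 and the chemokine receptor CCR2, which guides classical monocytes, at 60.8 FPKM. CD14, the co-receptor for LPS on which monocytes are usually sorted, had 0.632, 0.305 and 0.462 FPKM (rank 15704). FCGR3A, the Fc receptor of nonclassical monocytes, was at 0 in every library, with 3 fragments equal to 0.0648 FPKM, and the lectin FCN1 was at 0.0125 FPKM with a value above 0 in 1 library. VCAN (0.806), S100A12 (0.560) and CD300E (0.0328) were also below 1 FPKM. In bulk RNA, fewer cells that carry a transcript and less of it in each cell cannot be told apart.

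Macrophage markers were mostly low: 8 of 26 were expressed, 2 reached 10 FPKM, and the median was 0.302 FPKM, against 2.64 over all protein-coding genes. TREM2, a lipid-sensing receptor, had 55.9, 52.0 and 50.6 FPKM, and CSF1R, the receptor for the macrophage growth factor, had 30.5, 30.7 and 29.9 FPKM. Below them stood the lectin CD209 (9.62), the apolipoproteins APOC1 (8.33) and APOE (3.17) and the lipase LPL (2.73). SPP1 (0.760), GPNMB (0.715), C1QA (0.711), MARCO (0.448), CD9 (0.326), VSIG4 (0.278), MERTK (0.188), FABP4 (0.166) and MSR1 (0.157) lay under 1 FPKM. C1QC (0.107), LGMN (0.0938), ADGRE1 (0.0921), CHIT1 (0.0394), CD163 (0.0182) and MRC1 (0.00364) were lower still. LYVE1 and C1QB were at 0 in every library, with 3 fragments equal to 0.0546 and 0.120 FPKM. CD68, the lysosomal protein most used to mark macrophages, was listed at 0.182, 0.117 and 0.0852 FPKM, but 85.8% of its exonic bases are shared with another annotated gene, a class of genes with low values in this table.

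**Figure D2:**
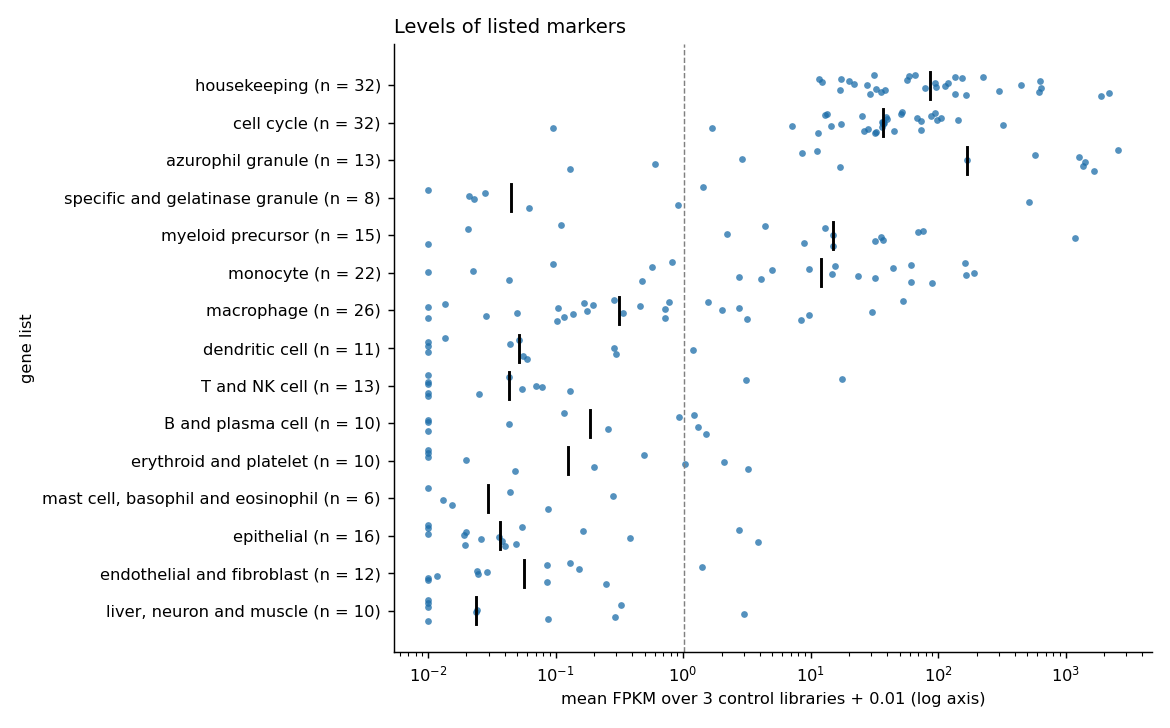
Mean FPKM over the 3 control libraries plus 0.01 (log axis) of each listed gene, with 1 point per gene, a bar at the list's median and a dashed line at 1 FPKM; n is the number of genes with a row. The azurophil list has the highest median (169 FPKM). The macrophage median (0.302 FPKM) is below 1 FPKM but above those of the lists of other lineages (0.0139 to 0.178 FPKM).

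Markers of other cells were near the floor. Over 8 lists, from dendritic and lymphoid cells to epithelium, fibroblasts and neurons, 11 of 88 genes with a row were expressed, 1 reached 10 FPKM and 24 were at 0 in every library. The summed level of the T and NK cell list ran from 18.6 to 24.4 FPKM, most of it NKG7, a cytotoxic granule protein, at 15.1, 21.2 and 16.4 FPKM. NCAM1, an adhesion molecule of neurons and NK cells, was at 3.11 FPKM, while CD3G, CD28, KLRD1, GZMB and ZAP70 were at 0. In the epithelial list, which matters because the design also names the lung line A549, CLDN7 (3.83) and MUC1 (2.71) were expressed and KRT5, NKX2-1 and SFTPC were at 0, with a summed level of 6.84 to 7.87 FPKM. None of the 11 dendritic cell genes was expressed in every library, with CD83 highest at 1.35, 1.30 and 0.890 FPKM, so that without replicate 3 it would count as expressed, and CLEC9A, CD207 and IDO1 at 0.

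Further lists gave similar values. B and plasma cell genes summed to 5.07 to 5.57 FPKM, with CD79B (1.29) and SDC1 (1.21) among the expressed genes and MS4A1, CD22 and FCRL5 at 0. Erythroid and platelet genes summed to 6.52 to 7.98 FPKM, led by EPOR (3.20) and GP9 (2.10), with HBA1, KLF1 and PPBP at 0. None of the 6 genes listed for mast cells, basophils and eosinophils was expressed, and TPSAB1 was at 0. This list leaves out RNASE2 (575) and RNASE3 (8.47), ribonucleases also of eosinophil granules, which were counted in the azurophil list. TAGLN (1.41) was the expressed gene of 12 for endothelium and fibroblasts, with COL1A2 and COL3A1 at 0, and CKM (3.02) that of 10 for liver, neuron and muscle, with TTR, SYT1, MYH7 and ACTC1 at 0. All 32 housekeeping genes were expressed, with a median of 86.3 FPKM.

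Transcription factors of the myeloid lineage were expressed in 33 of 40 cases, with a median of 14.5 FPKM. IRF8, needed for monocyte development, had 157, 153 and 147 FPKM, CEBPA, which starts granulocyte and monocyte differentiation, had 141, 155 and 137 FPKM, and SPI1, which encodes PU.1, had 135, 140 and 130 FPKM. The ranges of IRF8 and CEBPA and those of CEBPA and SPI1 overlapped; 43.4% of the exonic bases of CEBPA are shared with another gene. GFI1, a repressor of early granulocyte genes, was at 96.5 ± 1.04 and ELF1, an ETS factor, at 76.0 ± 2.44 FPKM (SD, n = 3). At the late end MAF had 0.431, 0.367 and 0.214 FPKM. MITF (0.556), EGR3 (0.212), EGR2 (0.0613), IRF4 (0.0565) and GFI1B (0.0138) were also below 1 FPKM.

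Factors of stem cells and leukaemia were expressed in 13 of 25 cases. HMGA1, a chromatin protein of dividing cells, had 285, 314 and 289 FPKM (rank 110), LMO2, an adaptor between DNA-binding factors, 69.8, 73.0 and 73.4 FPKM, and PBX3, a partner of HOX proteins, 34.7, 35.9 and 35.8 FPKM. AFF1, a transcription elongation factor, was at 25.2, LYL1 at 21.7 and MEF2C at 19.7 FPKM. Singled out after their values were seen, KMT2A was at 5.09, MLLT3, its fusion partner in THP-1, at 0.891 and MEIS1, a HOX cofactor, at 0.0116 FPKM. A gene-level FPKM does not show a fusion transcript, so these values do not test whether it was present.

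The HOX genes showed a sharp edge along the HOXA cluster. Of 29 HOX genes with a row 8 were expressed and 4 reached 10 FPKM, all of them at the end of the cluster with the high numbers. HOXA9 had 17.02, 18.3 and 16.5 FPKM, HOXA10 had 13.6, 13.4 and 13.1, HOXA11 had 14.6, 13.4 and 14.4, and HOXA13 had 12.4, 11.7 and 11.9. HOXA9 lay above the other 3 in every library, while the ranges of HOXA10 and HOXA11 overlapped. Among the other members HOXA5 (1.91), HOXB4 (1.91) and HOXB13 (1.07) were expressed, and the 8 HOXC and 2 HOXD genes with a row were below 1 FPKM. HOXA7, next to HOXA9, had 0.0706, 0.0796 and 0.181 FPKM with 62.5% of its exonic bases shared with another gene. HOXA9, HOXA10 and HOXA11 share 26.3% to 31.1% of theirs. How reads of shared bases were counted is not given, so the levels of these genes may be too high or too low.

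**Figure D3:**
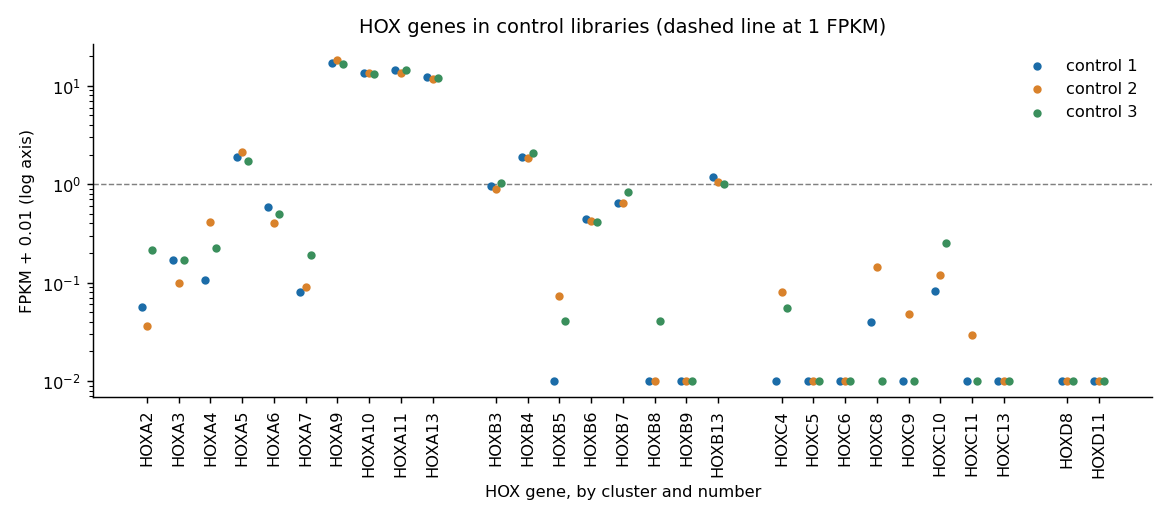
FPKM plus 0.01 (log axis) of HOX genes in control replicates 1, 2 and 3, ordered by cluster and number, with a dashed line at 1 FPKM. HOXA9, HOXA10, HOXA11 and HOXA13 lie between 11.7 and 18.3 FPKM in every library and every other HOX gene plotted is at or below 2.14 FPKM.

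Factors that respond to signals were expressed in 29 of 36 cases. ATF4, the factor of the amino acid stress response, was highest at 112 ± 1.99 FPKM (SD, n = 3), followed by JUND (45.1), the secretory pathway factor XBP1 (42.8), STAT6 (37.6), which relays interleukin-4, FOSL2 (31.7) and the heat shock factor HSF1 (29.97). Nuclear receptors were expressed in 13 of 21 cases, a share near that of all protein-coding genes. The shared partners RXRB (30.6) and RXRA (22.6) led, before the oxysterol receptor NR1H2 (10.9), PPARD (10.6) and the glucocorticoid receptor NR3C1 (9.60), and NR5A1 was at 0. Of 21 factors of other lineages 2 were expressed: TWIST1, a mesenchymal regulator, with 24.6, 26.6 and 25.1 FPKM, and OLIG2, of the glial lineage, with 3.51, 3.99 and 3.36 FPKM. GATA3, FOXA1 and GRHL2 were at 0.

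Receptors for bacterial products were few. Of 15 Toll-like receptor and LPS receptor genes 5 were expressed. LY86 had 20.4, 23.4 and 21.0 FPKM and its partner CD180, with which it forms a relative of the LPS receptor, had 2.02, 2.30 and 2.49 FPKM. TLR2, which senses lipoproteins, had 19.03, 17.9 and 18.1 FPKM. TLR4, the LPS receptor itself, had 1.27, 1.22 and 1.25 FPKM, and TLR6 had 1.20, 1.22 and 1.22 FPKM, both near the threshold of 1. The value of TLR4 stands for a mean of 272 fragments over 13272 annotated exonic bases. LY96, which encodes the MD-2 chain that binds LPS for TLR4, had 0, 0.105 and 0 FPKM. With CD14 at 0.466 FPKM, the 3 chains of the LPS receptor complex were each at or below 1.27 FPKM in every library. Downstream of them 16 of 18 adaptor genes were expressed, led by the kinase IRAK1 (63.6), IRF3 (30.8), the inhibitory IRAK3 (21.6), TAB2 (17.98), IKBKB (15.6) and MAP3K7 (12.9). TICAM2, the bridging adaptor, was at 0.0376 FPKM with 93.4% of its exonic bases shared with another gene.

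Growth factor receptors were expressed in 8 of 11 cases. After FLT3 and CSF1R came the G-CSF receptor CSF3R with 22.9, 23.4 and 23.8 FPKM, the interleukin-3 receptor chain IL3RA (15.1), and the common and GM-CSF chains CSF2RB (8.76) and CSF2RA (5.78). Of 31 cytokine and TNF receptors 20 were expressed, a share near the 59.71% of all protein-coding genes. IL6R, the interleukin-6 receptor, was highest with 106, 95.1 and 104 FPKM, and IL17RA, a receptor for interleukin-17, was next at 24.5 FPKM. TNFRSF1A and TNFRSF1B, the 2 receptors of TNF, had 23.2, 24.4 and 24.0 FPKM and 18.0, 18.7 and 17.2 FPKM, and the first was higher in every library. IL13RA1 (16.1) and IFNGR1 (15.9) followed, and IL2RA was at 0. IL7R, the receptor chain for interleukin-7, had 0.609, 0.517 and 0.277 FPKM, and the shared chain IL2RG was listed at 0.0749 FPKM with 50.8% of its exonic bases shared.

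Receptors for chemokines were expressed in 6 of 19 cases. CCR2 (61.7, 60.5 and 60.0 FPKM) was followed by CXCR4, the homing receptor of the bone marrow, with 35.9, 35.8 and 35.7 FPKM, CCR1 (19.5), CX3CR1 (14.6), CXCR2 (11.1) and CXCR3 (2.15), and CCR4 and CXCR5 were at 0. Of the Fc and complement receptors 7 of 17 were expressed, among them FCER1G, the recycling receptor FCGRT (49.5), FCGR1A (34.4), CD93 (31.95), FCGR2A (15.3) and ITGAX (9.67). Scavenger and lectin receptors were expressed in 10 of 26 cases, led by TREM2 and the collagen receptor MRC2 (52.2), whose ranges overlapped. SCARB1, which takes up HDL lipids, was at 22.6, LGALS3 at 6.15 and CD36 at 4.08 FPKM, and CLEC4A, CLEC4D and CLEC4E were at 0.

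Inhibitory receptors (8 of 18 expressed) were led by LAIR1 (34.3), LILRB4 (19.6), SIRPA (18.4) and CD33 (14.8), before CD47 (6.13) and CD300A (6.07). Of 21 integrins 11 were expressed. ITGB2, the shared chain of leukocyte integrins, had 89.1, 89.1 and 84.3 FPKM, and ITGAL, one of its partners, was at 24.8, above ITGAX. The fibronectin receptor chains ITGB1 (32.5), ITGA5 (29.8) and ITGA4 (18.7) lay below ITGB2, and ITGB8 was at 0. Among 34 G protein-coupled receptors 13 were expressed, with the purine receptor relatives P2RY8 (66.5) and P2RY2 (58.4) and the prostaglandin receptor PTGER4 (26.1) in front. ADGRE5 (14.3), the leukotriene receptor LTB4R (11.96) and the histamine receptor HRH2 (10.3) followed, and S1PR1, P2RY12, HCAR2 and HCAR3 were at 0.

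Of 9 protein kinase C genes 8 were expressed. PMA acts on the isoforms that bind diacylglycerol and not on the atypical ones, to which PRKCI belongs. PRKCD stood far above the others with 83.6, 84.2 and 84.5 FPKM (rank 444). The next, PRKCB, had 15.01, 14.2 and 15.6 FPKM, and PRKCA (5.52), PRKCI (4.96), PRKCQ (3.57) and PRKCE (1.51) were lower. These are levels 24 h after the wash, and no value before PMA was measured.

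Genes of division were high in these cells. Of 32 cell cycle genes 31 were expressed and 29 reached 10 FPKM, with a list median of 37.0 FPKM, against 7.86 over expressed protein-coding genes. CDC20, which activates the complex that ends mitosis, had 321, 336 and 311 FPKM (rank 100). The helicase subunits MCM3 (144), MCM7 (105) and MCM4 (98.1), the topoisomerase TOP2A (94.7) and the replication clamp PCNA (87.1) followed. CCND2, a G1 cyclin, was the 1 gene below 1 FPKM, at 0.0853. Of 10 inhibitors 8 were expressed, and CDKN2C, which blocks CDK4 and CDK6, was highest with 119, 123 and 114 FPKM. CDKN1B (16.1), CDKN1A (13.7), GADD45A (10.9), BTG2 (9.01) and CDKN2D (5.82) lay well below it. Whether the cells were arrested was not tested.

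CDKN2A, which encodes the inhibitor p16, was at 0 in every library, with 3 fragments equal to 0.0443 FPKM. Of its neighbours on chromosome 9, picked after their values were seen, the interferon genes IFNB1 and IFNW1 were also at 0. DMRTA1 was at 0.0655 and ELAVL2 at 0.824 FPKM. Farther out HACD4 (5.36), FOCAD (5.36) and TUSC1 (13.6) were expressed. Other genes of this stretch are not described, so it is not shown to be silent as a whole.

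Cytokine genes were mostly quiet. Of 42 genes 12 were expressed, 2 reached 10 FPKM, 6 were at 0 in every library, and the median was 0.226 FPKM. CCL5, a chemokine for T cells and monocytes, had 33.0, 28.7 and 28.4 FPKM, and TGFB1, an inhibitory growth factor, had 28.9, 29.9 and 26.7 FPKM, ranges that overlapped. IL18 (7.34), the interleukin-1 receptor antagonist IL1RN (5.51), LTB (4.25) and TNFSF10 (4.19) followed. TNF had 2.54, 2.44 and 2.41 FPKM and IL7 had 0.1004, 0.0565 and 0.0917 FPKM. IL6, CSF2, CSF3, CCL7, CCL8 and IFNB1 were at 0, with 3 fragments equal to 0.0864 to 0.244 FPKM.

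The level of neighbouring genes stood out in 1 stretch of chromosome 1, which was found by a search over all windows of 25 consecutive expressed protein-coding genes and is therefore a description. From MYCL to YBX1 (GRCh38, 39895426 to 42702349) the 25 genes had a median of 65.3 FPKM, against a median of 7.80 over the 9709 windows. The overlapping window from MFSD2A to P3H1 had the same median, so the edges of the block are not exact. The highest window at least 5 Mb away, also on chromosome 1 (153658654 to 154979249, SNAPIN to CKS1B), had 37.4. In single libraries the median of the block was 63.5 to 67.1 FPKM. The 25 expressed genes before it had a median of 12.1 and the 25 after it one of 17.7 FPKM.

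Within the block 10 of 25 genes were at 100 FPKM or more, against 2.91% of the expressed protein-coding genes outside it, and 6 were among the 100 most abundant genes. Besides YBX1 and CAP1 they were PPT1, a lysosomal thioesterase, with 772, 776 and 774 FPKM, CITED4, a transcriptional coactivator, with 583, 677 and 588 FPKM, COL9A2, a cartilage collagen chain, with 367, 397 and 392 FPKM, and SMAP2, a regulator of vesicle transport, with 339, 331 and 328 FPKM. ZMPSTE24 (188), PPIH (161), NFYC (146) and PPCS (111) were also above 100. Not all members were high: ZMYND12 (1.55) and SLFNL1 (1.30) were low, and MYCL, at 6.75 FPKM, was below the 7.86 median of expressed protein-coding genes. Of 31 protein-coding genes in the 2807 kb, 25 were expressed and 1 was at 0. The genes of the block named here were picked after their values were seen. Chromosome medians of expressed protein-coding genes ran from 6.01 (chromosome 18) to 10.1 FPKM (chromosome 1).

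**Figure D4:**
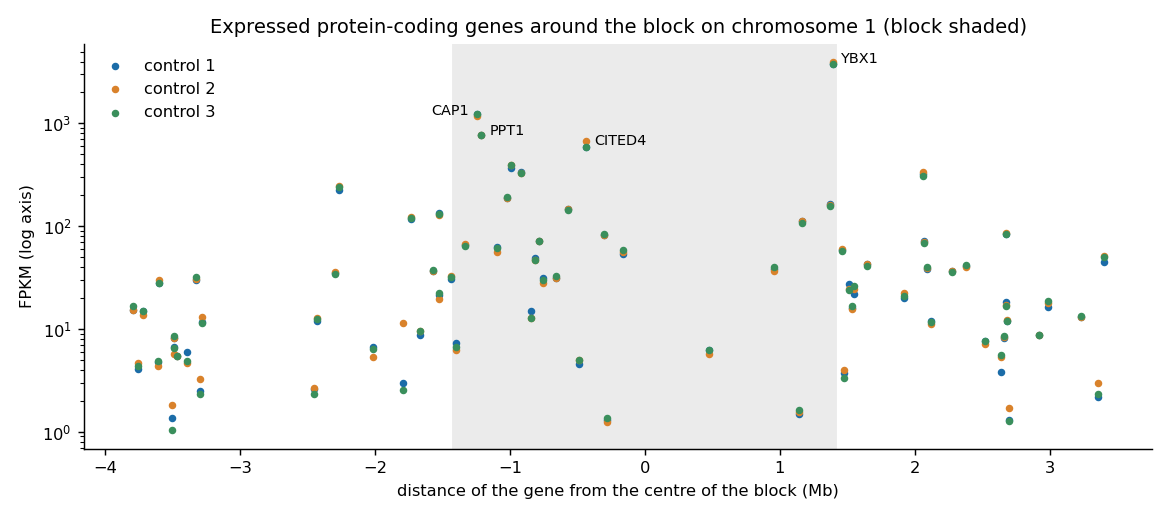
FPKM in each control library (log axis) of the expressed protein-coding genes around the block on chromosome 1, by distance in Mb from the centre of the block, with the block shaded. YBX1, CAP1, PPT1 and CITED4 are the highest points, and the block's median is 65.3 FPKM against 12.1 and 17.7 FPKM for the 25 expressed genes on either side.

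The 3 libraries agreed closely gene by gene. Across all 34643 genes, Pearson's r between libraries was 0.991 to 0.992 on log2(FPKM + 1), a value across genes, which are not independent replicates. Over recovered fragments the chi-square between any pair was 2.26 to 3.04 per degree of freedom, where counting noise alone gives 1, so all 3 were counted as separate. Among the 4552 genes at 10 FPKM or more the median coefficient of variation was 3.62%. It was over 20% for 28 of them, of which 3 were protein-coding.

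Of the 10 genes with the largest variation 8 are noncoding, most of them copies of coding genes. The first was XAGE1B, a cancer-testis antigen, with 2.65, 5.74 and 55.5 FPKM, or 66, 127 and 1261 fragments, so that replicate 3 stood apart. Its near-identical copy XAGE1A had 54, 56 and 26 fragments. SPCS2P4 had 296, 281 and 26 fragments against 1569, 1232 and 1681 for its parent SPCS2. RPL14P1 had 601, 260 and 248 fragments against 14419, 13982 and 13842 for RPL14, and GOLGA8O 689, 282 and 472 against 1557, 1758 and 1661 for its copy GOLGA8N. SNRPGP10 (9.08, 21.0 and 36.5 FPKM), DHFRP1 (54.6, 25.4 and 35.6 FPKM), SNRPEP4 (24.01, 13.98 and 14.9 FPKM) and RPL37AP1 (21.0, 11.7 and 17.8 FPKM) are further processed copies. RNU6-1178P and SNORA55, both short RNAs, had 9.02, 8.37 and 20.3 FPKM and 15.6, 8.52 and 15.2 FPKM.

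Low values went with shared exons. Protein-coding genes were divided by the share of their exonic bases that another gene of GENCODE v29 also covers. The median was 2.41 FPKM in 9830 genes with up to 1% shared, 3.79 with 1% to 20% and 2.45 with 20% to 50%. It was 0.527 FPKM in 399 genes with 50% to 80% shared and 0.0218 in 283 genes with more, of which 4.95% were expressed and 30.04% were at 0, against 57.6% and 8.26% in the first class. CD68, TICAM2, TLR9 (0.0769 FPKM, 86.3% shared) and CXCR5 (88.6%) belong to the last class, and IL2RG, HOXA7 and CLEC4A to the one before. So do FTH1, the heavy chain of ferritin, at 65.6 FPKM with 62.4% shared, beside FTL at 3438, and the cytokine gene MIF at 0.729 FPKM with 61.9% shared, both picked after their values were seen. For such genes the deposited FPKM cannot separate low expression from reads that were not counted. The genes CD14, LY96, MPO, MEIS1 and MRC1 share 0% to 4.19% of their exonic bases, outside these classes.

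**Figure D5:**
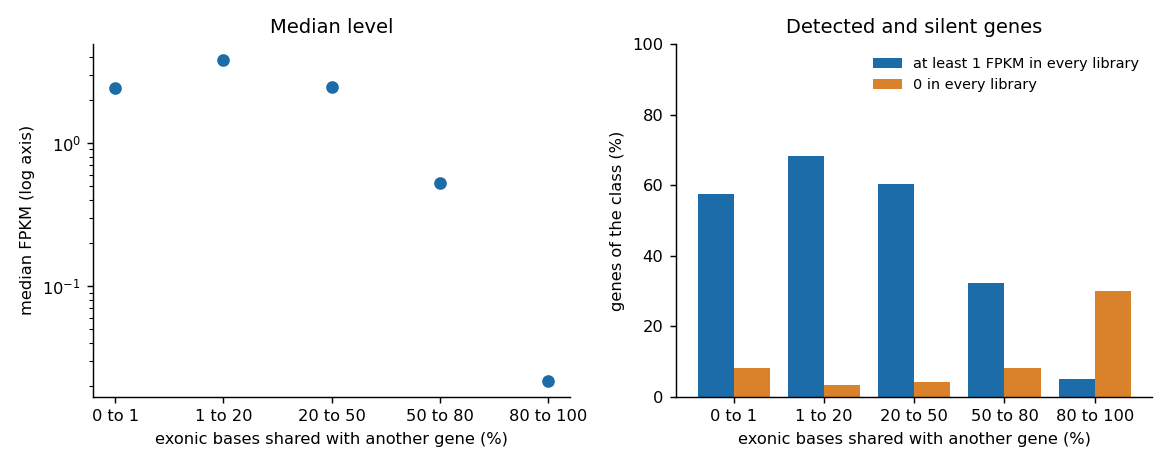
Protein-coding genes in 5 classes by the share of exonic bases that another gene also covers: the median of the mean FPKM over 3 control libraries (left, log axis) and the percentage of genes with at least 1 FPKM in every library or at 0 in every library (right). The median is 2.41 FPKM in the first class and 0.0218 FPKM in the last.

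Set against the label of a monocytic leukaemia line given PMA, the marker lists were mixed: 15 of 22 monocyte and 8 of 26 macrophage genes were expressed. FCER1G, CST3, TYROBP, CCR2, TREM2 and CSF1R were at 30.4 to 190 FPKM, while CD14, FCN1, CD163 and MRC1 were below 1 FPKM and FCGR3A was at 0. Beside them the haematopoietic genes SPI1, at 135 FPKM, and ITGB2, at 87.5 FPKM, were high. The granule genes AZU1, ELANE, CTSG and PRTN3 were at 1281 to 1655 FPKM, and LY96 was at 0.0351 FPKM. Of the genes that leukaemias with KMT2A fusions usually keep active, HOXA9 was at 17.2 FPKM and MEIS1 at 0.0116 FPKM. The identity of the line was not tested beyond these levels.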

How the data were processed

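Per the submitters' processing notes, the build was GRCh38 and the tools included HISAT2, StringTie, FastQC and bcl2fastq (no versions named). The use of strand and the treatment of multiply mapping reads are not given in the sources. The authors deposited 1 table of FPKM values with 1 column per library; groups come from the sample titles, and only the 3 control columns were used here. FPKM times the merged exon length of GENCODE v29 was divided by the value of 1 fragment. This gave whole numbers within 0.05 for 97.65% to 97.71% of values and so the depth. On data simulated with the same lengths, 100% of counts were recovered, which checks the calculation and not the lengths. Of the gene IDs 99.8% are in GENCODE v29. Means, SDs, ranks and counts were computed with Python 3.11.15, numpy 2.4.6 and pandas 2.3.3. No test was made, since 1 group was described.

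The 37 lists (638 of 680 symbols had a row) and the members named were chosen with earlier results of these data known. Named were the 30 highest genes, up to 6 leading members per list and those at 0 or, in myeloid lists, below 1 FPKM, all HOX genes at or above 1 FPKM, the TNF and IL7 axis, and the 10 noncoding and 10 most variable genes. Clone names, duplicated symbols (65) and Y-linked genes were not named, and some genes that the rule takes are left out here. Other genes named, LYZ, MPO, TLR9, HOXA7, LY96, KMT2A, MLLT3 and MEIS1 among them, were chosen after their values were seen. Alternatives covered the threshold, scaling, gene classes and each library left out.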

Additional observations from a re-analysis of the deposited data

How the results depend on the processing

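The count of 12127 expressed genes fell to 6929 at a threshold of 5 FPKM and stayed within 1.5 times at 0.5 (14107) and 2 FPKM (10080), by the mean, in protein-coding genes alone and without genes sharing 50% or more of their exons (11906, added after seeing the data). Genes at 0 in every library numbered 5940, 10156 when below 0.1 FPKM counted, and 1167 if protein-coding. The 10 leading genes held 12.9% of the summed FPKM, 8.23% without mitochondrially encoded genes, 6.08% of fragments, and the 100 leading genes 36.1%. By fragments the mitochondrial share was 3.74%, the ribosomal 8.38% and the azurophil 1.18%. The median of listed genes was 1.40 FPKM, 4.75 when each library was rescaled to the same total as TPM are, 1.43 by the median over libraries and 1.37 to 1.38 with a library left out. The lowest r was 0.991, 0.967 with a pseudocount of 0.1 and 0.993 in expressed genes. Of the 329 expressed listed genes 242 stayed at 5 FPKM. Of 37 lists 18 changed their count by over 1.5 times at 5 FPKM, 7 at 2 and 3 at 0.5. The dendritic list had 1 expressed gene, CD83, in place of 0 without control replicate 3. A window overlapping the block on chromosome 1 was also the highest with windows of 15 (82.8) and 40 genes (51.8), both added after seeing the data. No paired analysis was possible because only 1 group was described. Levels below that of 3 fragments are limited by depth.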
